A study of Oryza sativa with 6 samples.

Results

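Histones and other proteins built on the histone fold were examined in rice (Oryza sativa) root tips. A gene was taken as a member when its deposited description opened with the words histone, core histone or linker histone and did not name a deacetylase, a chaperone or another protein that acts on histones. The rule found 88 genes among the 56962 in the table. Of these, 6 are described as linker histone H1/H5, 4 as histone H2A/H2B/H3 and 78 by the domain name histone-fold alone. A second deposited column, the protein family, carries the label Histone for 39 of the 82 genes outside the linker group, the 4 described as H2A/H2B/H3 among them, and no label of that kind for the other 43. Below, the former are called labelled core histone genes and the latter unlabelled histone-fold genes. The label was not checked against sequences. The unlabelled group may therefore hold core histone genes too, and sums over the labelled genes may leave some out. The descriptions do not separate H2A, H2B, H3 and H4, so no gene is assigned to one of them.

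Messenger RNA was sequenced from 3 libraries of the wild type J10 and 3 of the mutant lad, also named sr1. The series title names SHORT-ROOT 1, but no label ties it to a locus, so the mutated gene was not checked in these libraries. All seedlings grew at 25°C, and the last 0.5 cm of the root was taken 6 days after sprouting. Neither genotype received a treatment that the labels name, and the labels do not say whether the replicates came from separate plants or cultures, so the tests measure the spread between these libraries, which may be technical. The title also names cell division and tracheary elements, which conduct water in the xylem, and the comparison asks which histone transcripts differ between the 2 genotypes.

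Core histones form the spool around which DNA is wrapped in the nucleosome, and linker histones bind the DNA where it enters and leaves that spool. In dividing cells most core histone transcripts accumulate while DNA is copied, when new nucleosomes are needed, whereas variant histones are also made outside that phase. In plants histone transcripts carry a poly(A) tail, unlike the main histone transcripts of animals. The same protein fold occurs outside nucleosomes, for example in the B and C subunits of the transcription factor NF-Y and in subunits of the general transcription factor TFIID, so a histone-fold description alone does not make a gene a histone gene.

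Libraries held 16405022 to 20693114 counts. Within a genotype, libraries correlated at 0.982 to 0.991 (Spearman, across tested genes) and no pair agreed within sampling noise (the lowest chi-square over its degrees of freedom was 9.31), so all 6 were kept. Of 4 markers of the root tip, RCc3, QHB, SHR1 and SCR1, all were detected in each library. The root-specific gene RCc3 (LOC_Os02g44310) measured 1654 ± 353 CPM (read counts scaled to library depth with TMM factors) in wild type and 945 ± 204 CPM in lad. The quiescent-centre gene QHB (LOC_Os01g63510) fell from 13.3 ± 1.69 to 5.13 ± 1.69 CPM. SHR1 (LOC_Os07g39820) also passed, at 64.1, 69.5 and 73.7 CPM in wild type and 47.4, 55.0 and 42.1 CPM in lad. No label ties this marker gene to the SHORT-ROOT 1 of the series title. SCR1 did not pass, at 20.2 ± 2.77 and 16.3 ± 1.98 CPM. Such pairs are means ± SD over the 3 libraries of a genotype (n = 3). Genes for chlorophyll-binding proteins and the small Rubisco subunit, which mark green tissue, summed over 4 rows to 2.88, 2.35 and 2.38 CPM in wild type and 3.57, 4.04 and 4.09 CPM in lad, low in every library but apart between genotypes. The part of these marker differences in the histone results was not tested.

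Histone transcripts as a whole had a lower mean in the mutant, but the libraries of the genotypes overlapped. The 88 genes summed to 8445 ± 1155 CPM in wild type and 7242 ± 251 CPM in lad, and the second mean was 0.858 of the first. By library the sums were 7273, 9582 and 8480 CPM in wild type replicates 1, 2 and 3. In mutant replicates 1, 2 and 3 they were 7407, 7365 and 6953 CPM. Wild type replicate 1 lay inside the range of the mutant, so the genotypes overlapped, and without wild type replicate 2 the ratio was 0.919 when the same CPM values were used. As a share of all counts of a library, which is scaling by library totals, the genes took 0.735, 0.885 and 0.825% in wild type and 0.771, 0.755 and 0.713% in the mutant. Scaled by library totals the ratio of the means was 0.917. In RNA from whole root tips, fewer cells that make a transcript and less of it per cell cannot be told apart.

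**Figure D1:**
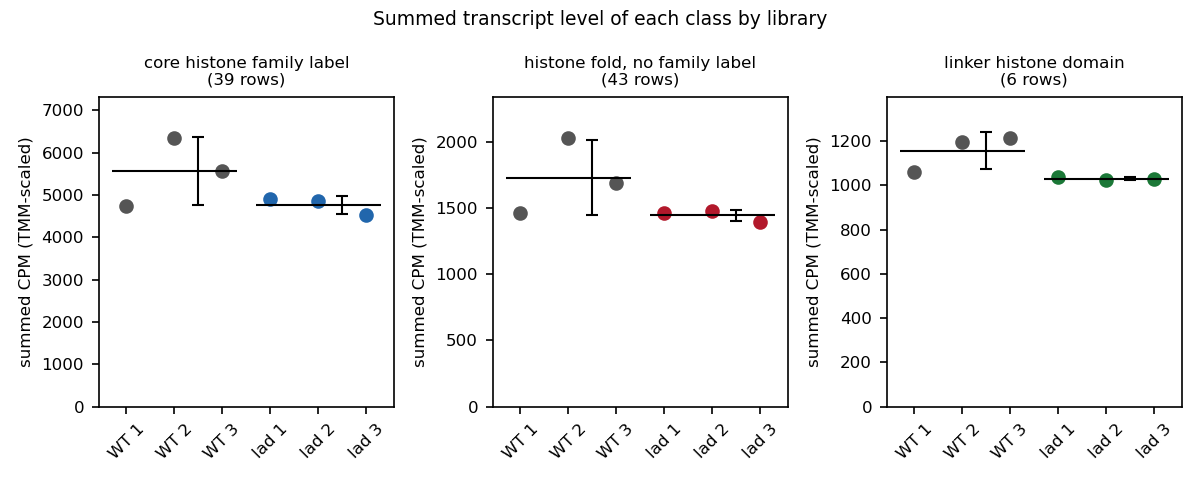
Summed transcript level of the labelled core histone genes, the unlabelled histone-fold genes and the linker histone genes in each library, in TMM-scaled CPM; points are libraries, horizontal lines group means and bars SD. Labelled core histone genes summed to 4747 to 6356 CPM in wild type and 4530.2 to 4907 CPM in the mutant, so the groups overlap, while the linker sums do not overlap with TMM scaling but do as shares of library totals.

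The 39 labelled core histone genes gave 65.8% of the wild type sum, the 43 unlabelled genes 20.5% and the 6 linker genes 13.7%. Labelled core histone genes summed to 5559 ± 805 CPM in wild type and 4768 ± 207 CPM in lad. Linker genes summed to 1157 ± 84.3 and 1030.0 ± 6.33 CPM. The linker sums of the 3 mutant libraries lay below those of the 3 wild type libraries, but wild type replicate 1, at 1061 CPM, was close to mutant replicate 1, at 1037 CPM. As shares of library totals the linker genes overlapped, with 0.107, 0.110 and 0.118% in wild type and 0.108, 0.105 and 0.105% in the mutant. The 24 unlabelled genes whose deposited model has no intron (a gene length equal to the span of the locus) summed to 1483 ± 265 CPM in wild type and 1173 ± 42.9 CPM in lad, again without overlap. Here too wild type replicate 1, at 1234 CPM, was close to mutant replicate 2, at 1206 CPM. The 19 unlabelled genes with an intron went the other way, from 245 ± 20.7 to 270.3 ± 2.87 CPM, and their groups overlapped. As shares of library totals both of these groups of unlabelled genes were apart between genotypes. Those without an intron were barely so, at 0.1247% in wild type replicate 1 and 0.1238% in mutant replicate 1. This split by intron was chosen after the values were seen.

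Of the 88 genes, 63 had enough counts to be tested, 19 had no count in any library and 6 had between 1 and 29 counts in all. All 6 linker genes, 32 of 39 labelled genes and 25 of 43 unlabelled genes were tested. At an adjusted p below 0.05, 17 of the 63 fell in the mutant and 5 rose (edgeR quasi-likelihood test, Benjamini-Hochberg over 22624 genes). That is 27.0% lower and 7.94% higher, against 20.3% lower and 24.9% higher over all genes tested. Scaled by library totals instead of TMM, 12 fell and 9 rose, as did 3636 and 6227 of all genes. The 3 mutant libraries lay entirely below the 3 wild type libraries for 21 of the 63 genes and entirely above for 9, which is 33.3 and 14.3%, against 26.6 and 30.2% of all genes tested. The median log2 change (mutant minus wild type) was -0.25 over the 63 genes and 0.02 over all genes tested.

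Shares of called genes varied with the level of the genes. Of the 63 genes, 42 averaged 50 CPM or more over the genotypes, a split chosen after the values were seen, and 14 of these fell and 1 rose. Those 33.3% lower stand beside 34.7% of the 4841 genes at that level, so the share of falling genes was near the background of abundant genes. The 2.38% that rose stand beside 21.2% of abundant genes. Among the 21 less abundant genes 3 fell and 4 rose, which is 14.3 and 19.0%, against 16.3 and 26% of the 17783 genes at that level, so neither share was above the background. No member that fell did so by 2-fold or more in this fit, but LOC_Os01g08790 did under some alternative settings. The 17 that fell had a median log2 change of -0.54, with 0.502 to 0.787 of the wild type level left. Over all 4585 genes that fell the median was -0.69.

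**Figure D2:**
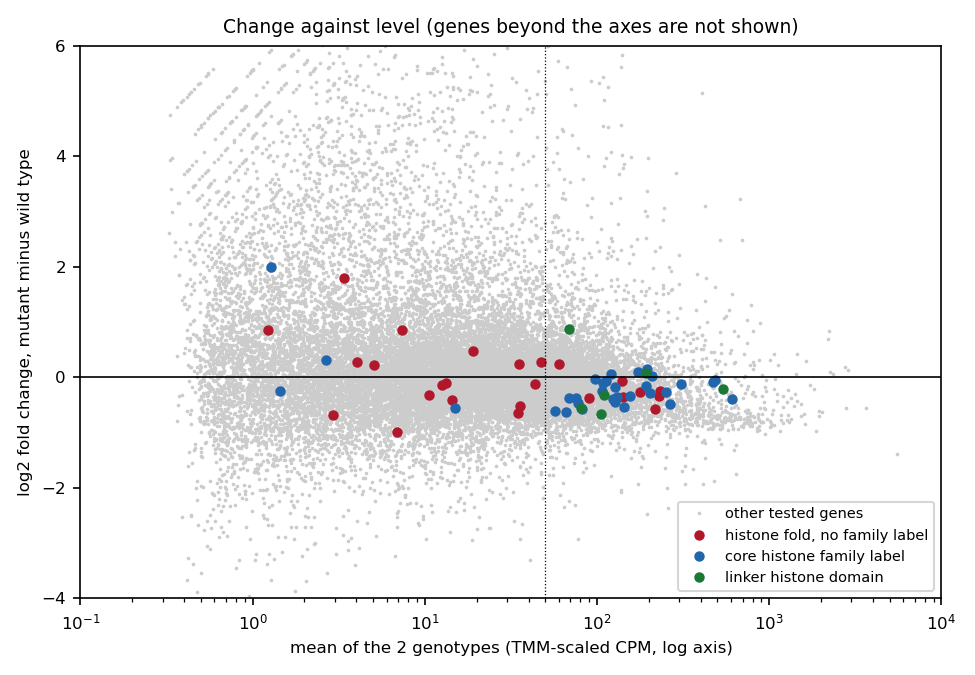
Log2 fold change (mutant minus wild type, y axis) against mean TMM-scaled CPM of the 2 genotypes (x axis, log scale) for the 63 tested members in colour and all other tested genes in grey; the dotted line marks 50 CPM. Of the 42 members to its right, 35 lie below 0, with a median of -0.28 against -0.13 for the 4841 genes at that level.

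Library by library, the members tended to rank the wild type libraries alike, most of all the abundant and the labelled core histone genes. Wild type replicate 1 was the lowest wild type library for 51 of the 63 genes (81.0%) and replicate 2 the highest for 43 (68.3%). Over all genes tested these shares were 39.3 and 38.1%, and over genes of 50 CPM or more 52.8 and 54.5%. Among the 32 labelled core histone genes, replicate 1 was lowest for 30 and replicate 2 highest for 26. For the 25 unlabelled genes these counts were 16 and 15, and for the 6 linker genes 5 and 2. For the 21 members under 50 CPM they were 11 and 9. The number of calls moved with the libraries used. Without wild type replicate 1, 31 genes fell and the median log2 change was -0.39, whereas without wild type replicate 2, 13 fell and the median was -0.17. Without wild type replicate 3, 11 fell and 3 rose, and without mutant replicate 3, 10 fell. The share of all genes tested that fell moved too. It was 20.3% with every library, 22.7% without wild type replicate 1 and 16.8% without wild type replicate 2. Without wild type replicate 3 it was 14.5%, with 19.2% higher, and without mutant replicate 3 it was 15.4%. What sets the wild type libraries apart was not tested.

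**Figure D3:**
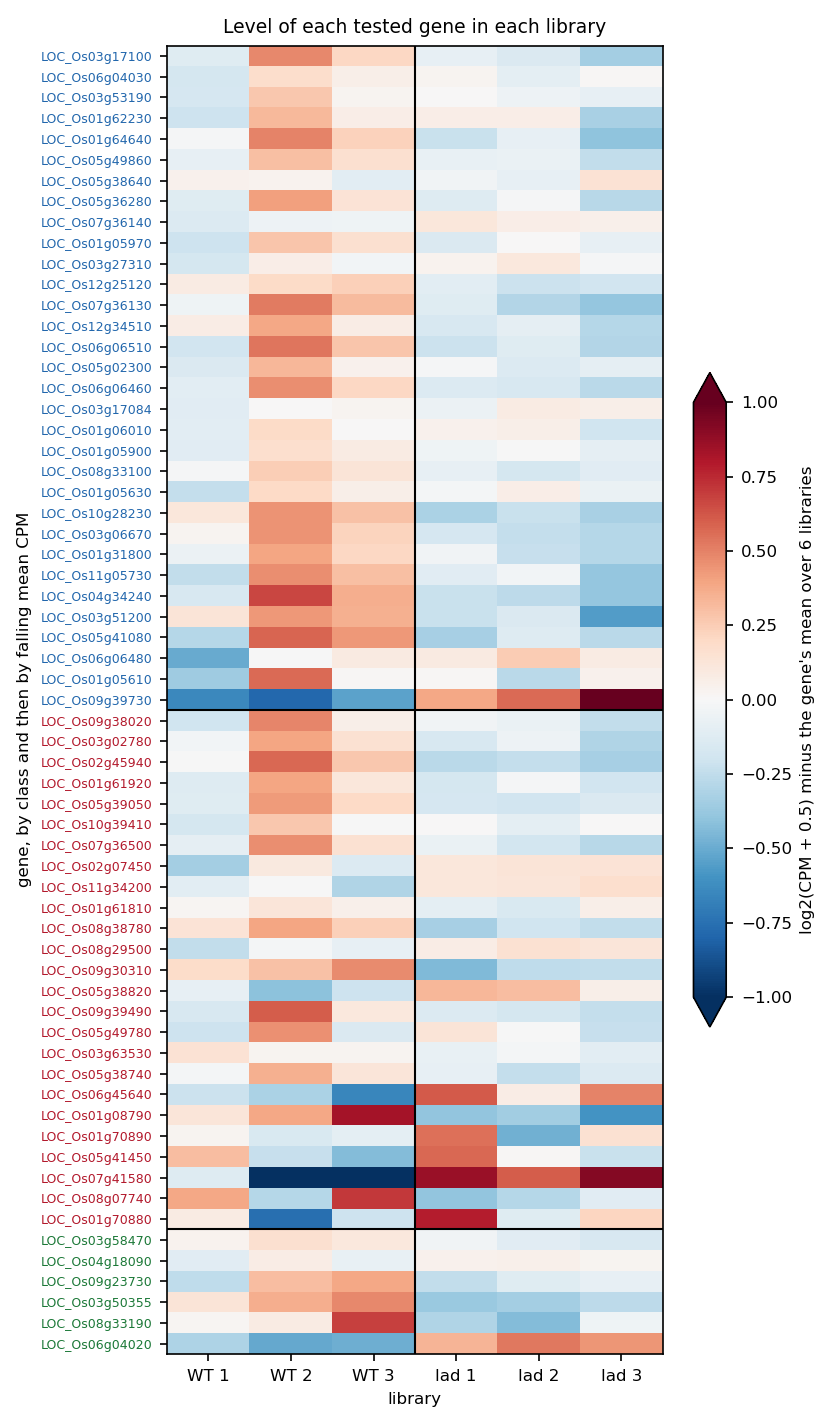
Level of each of the 63 tested genes in each library, as log2(CPM + 0.5) minus the mean of the gene over the 6 libraries; labelled core histone genes are at the top, unlabelled histone-fold genes in the middle and linker genes at the bottom. Wild type replicate 2 is the reddest column for most abundant genes, and wild type replicate 1 resembles the mutant columns for many of them.

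Of the 6 linker histone genes 1 rose, 2 fell and 3 did not pass. Their shares were 33.3% lower and 16.7% higher, against 20.3 and 24.9% of all genes tested. Of genes of 50 CPM or more, 34.7% fell and 21.2% rose, so neither linker share was above that background. LOC_Os06g04020 (chromosome 6, 1642214 to 1643800) measured 53.1, 46.1 and 47.0 CPM in wild type replicates 1 to 3 and 83.5, 95.1 and 89.9 CPM in the mutant. Every mutant library lay above every wild type library, and the gene rose by 0.88 ± 0.11 (log2, SE; adjusted p = 8.75e-05, edgeR quasi-likelihood), the smallest adjusted p among the members. LOC_Os03g50355 (chromosome 3, 28740905 to 28742527) went the other way, with 112, 131 and 143 CPM in wild type and 78.5, 80.4 and 84.8 CPM in lad. All its mutant values were below all its wild type values, and it fell by 0.66 ± 0.11 (adjusted p = 0.000916, edgeR). Both of these calls held under all 14 alternatives. LOC_Os08g33190 (chromosome 8, 20654681 to 20657933) had 78.9, 82.6 and 125 CPM in wild type and 63.0, 57.5 and 75.4 CPM in lad, where wild type replicate 3 stands well above the rest. Its log2 change of -0.55 ± 0.18 passed (adjusted p = 0.0274, edgeR), but was -0.34 without wild type replicate 3, and the call was lost there, without mutant replicate 1 or 2 and with library totals (adjusted p from 0.0636 to 0.102).

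The most abundant linker gene did not pass. LOC_Os03g58470 (chromosome 3, 33304497 to 33305990) measured 550.1, 601 and 577 CPM in wild type and 524, 495 and 481 CPM in lad. Its mutant values lay below its wild type values, with a log2 change of -0.20 and a 95% interval from -0.45 to 0.04 (adjusted p = 0.155, edgeR). LOC_Os04g18090, the second in level, had 187 ± 13.1 and 197 ± 1.56 CPM, with an interval from -0.15 to 0.30. For the last, LOC_Os09g23730, the log2 change was -0.32 and the adjusted p 0.116 (edgeR). The rise of LOC_Os06g04020 thus stood against lower values in 4 of the other 5 linker genes, of which 2 passed.

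Among labelled core histone genes, 11 fell, 1 rose and 20 did not pass. The 34.4% that fell stand beside 20.3% of all genes tested and 34.7% of genes of 50 CPM or more. The 3.1% that rose stand beside 24.9 and 21.2%. The share that fell was thus near that of abundant genes. The call held under all 14 alternatives for 3 of those that fell. LOC_Os10g28230 (chromosome 10, 14678069 to 14679443) measured 86.3, 109 and 97.6 CPM in wild type and 63.9, 68.2 and 63.5 CPM in lad. LOC_Os03g51200 (chromosome 3, 29291508 to 29292235) measured 60.5, 74.9 and 71.0 CPM in wild type and 47.2, 50.1 and 37.3 CPM in lad. LOC_Os03g06670 (chromosome 3, 3371374 to 3372410) measured 77.2, 103 and 88.4 CPM in wild type and 67.2, 64.3 and 62.0 CPM in lad. In each of the 3 the lowest wild type library, replicate 1, was still above the highest mutant library. Their log2 changes were -0.58 ± 0.11, -0.62 ± 0.13 and -0.47 ± 0.12, with adjusted p of 0.00172, 0.00372 and 0.00863 (edgeR quasi-likelihood). All 3 genes have an intron in the deposited model.

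**Figure D4:**
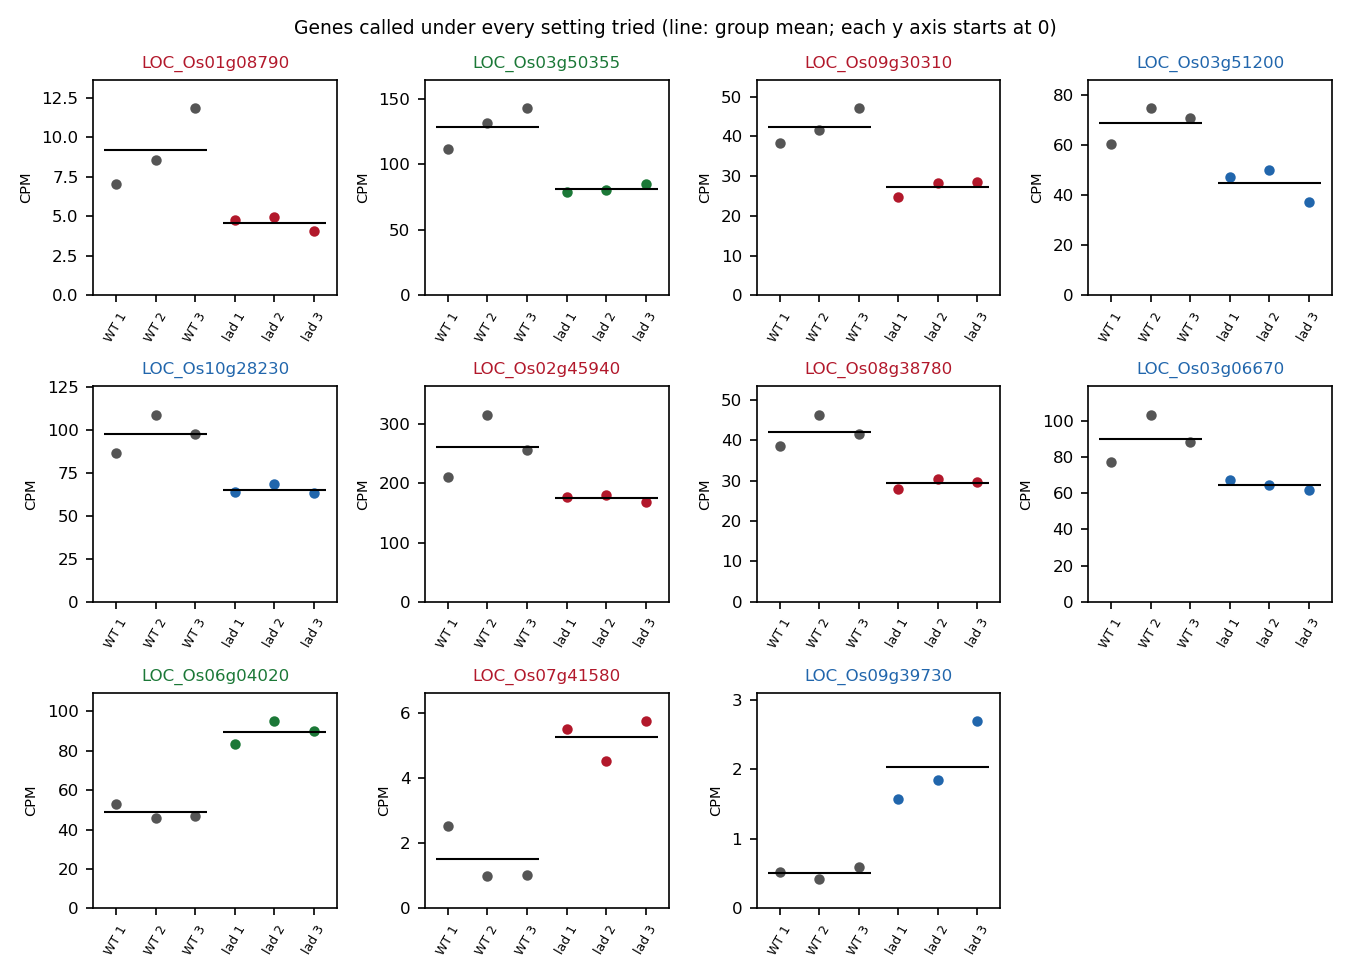
TMM-scaled CPM in each library of the 11 genes whose call held under all 14 alternatives; points are libraries and lines group means, with gene names in blue for labelled core histone genes, red for unlabelled histone-fold genes and green for linker genes. In 8 panels the mutant libraries lie below and in 3 above every wild type library.

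The other 8 labelled genes that fell did so with less certainty. LOC_Os04g34240, with 56.6, 101 and 81.5 CPM in wild type and 54.1, 52.8 and 48.3 CPM in lad, had a log2 change of -0.62 ± 0.18 (adjusted p = 0.0154, edgeR). LOC_Os07g36130 had 135, 200.4 and 175 CPM in wild type and 129, 114 and 107 CPM in lad, a change of -0.54 ± 0.15 (adjusted p = 0.0115). In both genes wild type replicate 1 lay just above the mutant, and both calls were lost without mutant replicate 3 (adjusted p of 0.0632 and 0.0521, edgeR). LOC_Os12g25120 had the tightest libraries, with 163, 176 and 182 CPM in wild type against 143, 133 and 135 CPM, and a change of -0.35 ± 0.10 that was lost only without wild type replicate 3 (adjusted p = 0.0772, edgeR). LOC_Os01g64640, among the more abundant members, measured 259, 369 and 306 CPM in wild type and 224, 247 and 197 CPM in lad. Its change of -0.49 ± 0.15 did not pass on omitting wild type replicate 2 or 3 or mutant replicate 1 or 3 (adjusted p from 0.0567 to 0.0842, edgeR).

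The remaining 4 fell by 0.36 to 0.45 on the log2 scale. LOC_Os12g34510 went from 147 ± 19.2 to 115 ± 7.63 CPM and lost its call without wild type replicate 2, without mutant replicate 1 or 3 and with library totals (adjusted p from 0.0610 to 0.0989, edgeR). LOC_Os01g31800 went from 84.9 ± 13.3 to 65.4 ± 6.19 CPM, with overlapping groups, and lost its call without wild type replicate 2 or 3, without mutant replicate 2 or 3 and with library totals (adjusted p from 0.0856 to 0.126). LOC_Os06g06460 and LOC_Os06g06510 went from 141 ± 27.9 to 107 ± 5.28 CPM and, for the latter, from 148 ± 36.0 to 108 ± 6.44 CPM. The libraries of LOC_Os06g06510 overlapped between genotypes and those of LOC_Os06g06460 did not. Both calls were lost on leaving out any 1 library except wild type replicate 1 and with library totals, and that of LOC_Os06g06510 also with limma-voom (adjusted p from 0.0662 to 0.123 and from 0.0533 to 0.138). Without wild type replicate 2 the log2 change of LOC_Os06g06510 was -0.29 in place of -0.45.

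The only labelled core histone gene that rose was barely expressed. LOC_Os09g39730 (chromosome 9, 22791286 to 22792870) measured 0.514, 0.419 and 0.594 CPM in wild type and 1.57, 1.84 and 2.69 CPM in lad, a log2 change of 1.99 ± 0.42 (adjusted p = 0.00332, edgeR). Its 3 mutant values lay above its wild type values, and the call held under all 14 alternatives. Over the 6 libraries it had 141 counts, and it overlaps LOC_Os09g39720 on the opposite strand, which had 23, so that reads of the pair cannot be told apart where the counting ignored strand.

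The labelled genes with the highest mean over both genotypes did not pass. LOC_Os03g17100 (chromosome 3, 9498900 to 9499826), the highest member in wild type, measured 554, 838 and 693 CPM there and 569, 544 and 474 CPM in the mutant. The groups overlapped because wild type replicate 1 lay among the mutant libraries, and the log2 change of -0.39 had a 95% interval from -0.74 to -0.04 (adjusted p = 0.0647, edgeR). It passed under 4 alternatives, namely upper-quartile factors, no filter, DESeq2 and the omission of wild type replicate 1 (adjusted p from 0.00708 to 0.0426), and without wild type replicate 2 its change was -0.26. LOC_Os06g04030 (chromosome 6, 1645414 to 1646326) measured 428, 546 and 503 CPM in wild type and 494, 452 and 487 CPM in lad. Its interval ran from -0.32 to 0.23. Per kilobase of deposited gene length, LOC_Os03g17100 stood at 841 CPM in wild type, followed by LOC_Os06g04030 with 611, LOC_Os07g36140 with 450.4, LOC_Os07g36130 with 417 and LOC_Os03g53190 with 416. The last 3 are too close to be ordered by these libraries. LOC_Os05g41080, the only tested gene of the 4 described as H2A/H2B/H3, measured 11.7, 21.8 and 19.6 CPM in wild type and 11.3, 13.1 and 11.9 CPM in lad (log2 change -0.55, adjusted p = 0.0613, edgeR), and wild type replicate 1 again lay among the mutant values. The other 3 of that description had no count.

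**Figure D5:**
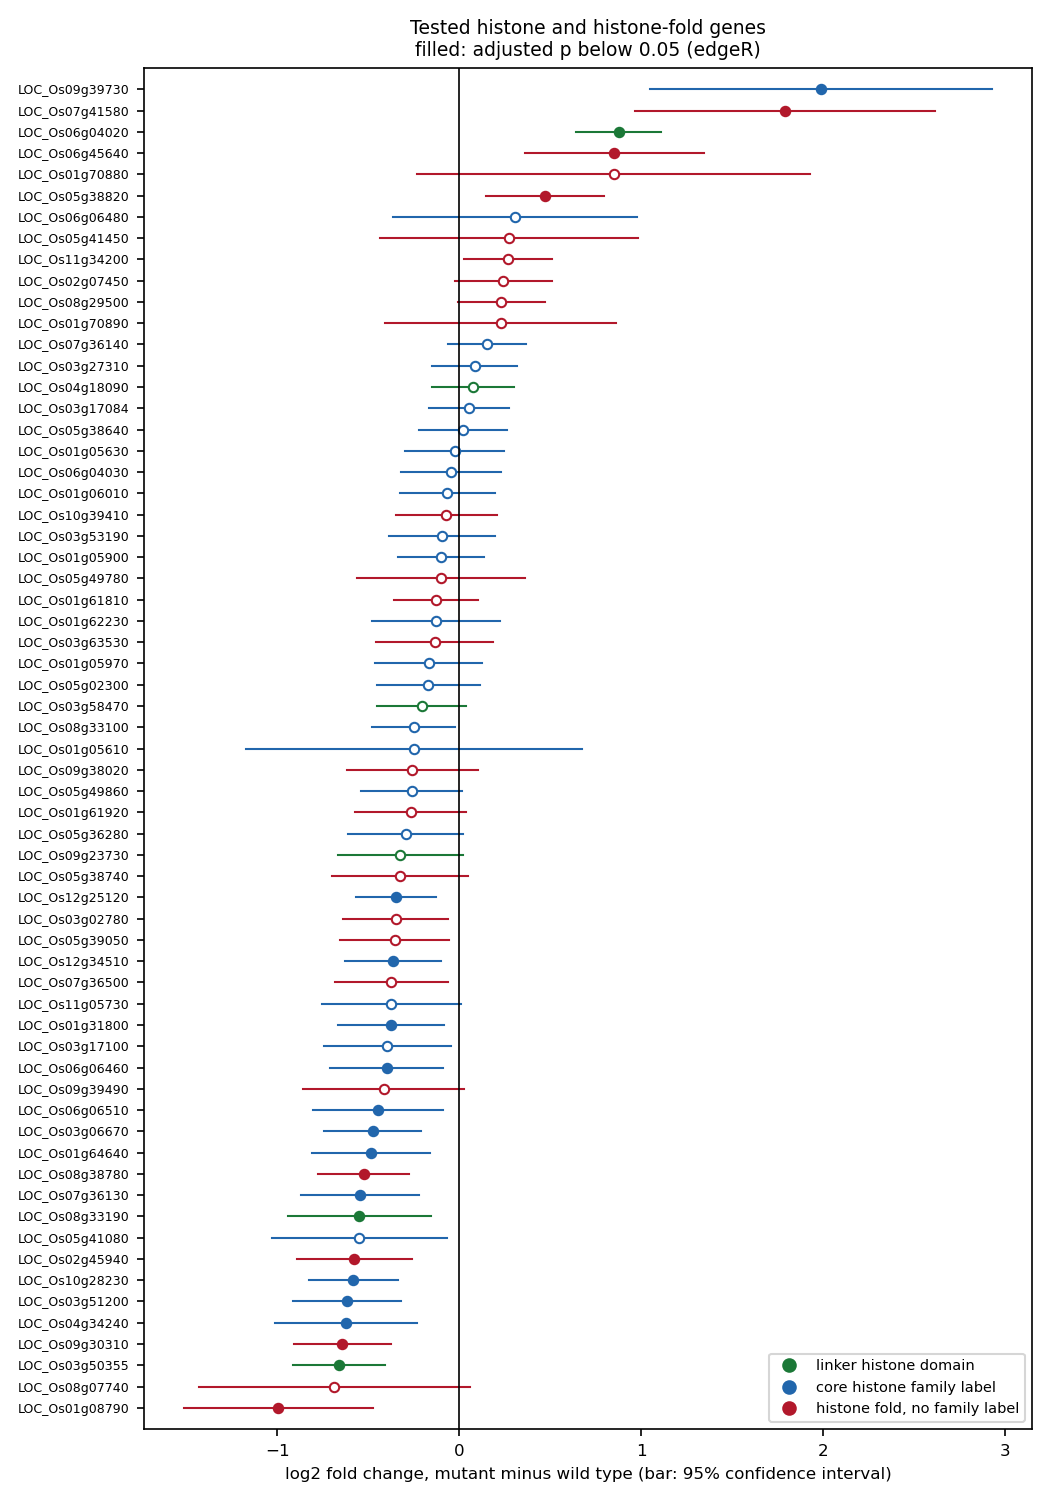
Log2 fold change (mutant minus wild type) of the 63 tested genes with 95% confidence intervals, coloured by class; filled points passed an adjusted p of 0.05. Most intervals sit between -1 and 0.5, with 46 genes below 0 and 17 above, and the 5 genes that rose are among the 6 at the top.

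The median change of unlabelled histone-fold genes differed in sign with the structure of the gene model. Of 15 tested genes without an intron 4 fell and 1 rose, 26.7 and 6.67% (median log2 change -0.35). Of 10 with an intron none fell and 2 rose (20%), with a median of 0.24. Over all genes tested 20.3% fell and 24.9% rose, so 26.7% lower and 20% higher were near the background. Among labelled core histone genes the medians were -0.28 for 12 genes without an intron and -0.21 for 20 with one, so both lay below 0. This grouping was chosen after the values were seen and is given without a test. The intron-free unlabelled genes were also the more abundant ones, with a median of 71.3 CPM per kilobase in wild type against 15.9 for those with an intron.

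LOC_Os02g45940 (chromosome 2, 27993898 to 27994741) was the most abundant unlabelled gene to fall, with 211, 316 and 256 CPM in wild type and 176, 180 and 169 CPM in lad. The libraries did not overlap, and the log2 change was -0.58 ± 0.14 (adjusted p = 0.00762, edgeR). LOC_Os09g30310 measured 38.4, 41.6 and 47.1 CPM in wild type and 24.7, 28.4 and 28.4 CPM in lad. LOC_Os08g38780 measured 38.6, 46.4 and 41.5 CPM in wild type and 27.8, 30.5 and 29.6 CPM in lad. In both the genotypes were apart, and the changes were -0.64 ± 0.12 and -0.53 ± 0.11 (adjusted p of 0.00152 and 0.00337, edgeR). LOC_Os01g08790, at 9.15 ± 2.45 CPM in wild type and 4.60 ± 0.444 CPM in lad, fell by 0.99 ± 0.23, the largest fall among the members (adjusted p = 0.00581, edgeR). These 4 calls held under all 14 alternatives, over which the log2 change of LOC_Os01g08790 ran from -1.18 to -0.80.

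Each unlabelled gene that rose averaged under 25 CPM. LOC_Os07g41580 (chromosome 7, 24921007 to 24921998) measured 2.52, 0.994 and 1.03 CPM in wild type and 5.52, 4.52 and 5.75 CPM in lad, a log2 change of 1.79 ± 0.37 (adjusted p = 0.00289, edgeR). Its groups did not overlap, and the call held under all 14 alternatives. LOC_Os06g45640 measured 5.96, 5.54 and 4.27 CPM in wild type and 10.98, 7.43 and 10.1 CPM in lad, a call lost only without wild type replicate 3 (adjusted p = 0.0554, edgeR). LOC_Os05g38820 measured 17.7, 14.0 and 16.2 CPM in wild type and 23.7, 23.3 and 19.6 CPM in lad, a call lost without wild type replicate 2 or 3 or mutant replicate 1 or 2 (adjusted p from 0.0600 to 0.0914, edgeR). Both genes had every mutant library above every wild type library. LOC_Os02g07450, LOC_Os08g29500 and LOC_Os11g34200 had log2 changes of 0.24, 0.23 and 0.27 that did not pass, although their mutant libraries all lay above the wild type, and they passed when libraries were scaled by their totals, as did the labelled core histone gene LOC_Os07g36140 (log2 change 0.15).

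The 2 unlabelled genes with the highest mean over both genotypes did not pass, although in wild type alone LOC_Os02g45940, which fell, stood above them at 261 CPM. LOC_Os03g02780 measured 221, 296 and 250.1 CPM in wild type and 201, 218 and 183 CPM in lad, a log2 change of -0.35 at the edge of the threshold (adjusted p = 0.0502, edgeR). It passed under 7 of the 14 alternatives (adjusted p from 0.0112 to 0.0493), DESeq2, limma-voom and the replicate block among them. LOC_Os09g38020 measured 199, 320 and 238 CPM in wild type and 223, 218 and 192 CPM in lad, and its interval ran from -0.62 to 0.10. Its log2 change of -0.26 was -0.07 without wild type replicate 2 and -0.44 without wild type replicate 1, where it passed (adjusted p = 0.0296, edgeR). Over the 27 abundant members that did not pass, the intervals of the log2 change lay between -0.76 and 0.51. Of these intervals 22 included 0, which leaves room for modest differences in either direction, and the other 5 lay wholly below 0. Over the 14 less abundant ones they lay between -1.43 and 1.93.

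Members occur on all 12 chromosomes, and 39 of the 88 lie within 200 kb of another, in 15 blocks. Called and uncalled genes stood side by side in several blocks. The 5 members on chromosome 1 between 2674400 and 2872988 had log2 changes from -0.25 to -0.02 and none passed, while 2 of the 3 between 3040092 and 3056861 on chromosome 6 fell. On chromosome 7, LOC_Os07g36130 and LOC_Os07g36140 lie 1996 bases apart and both have a deposited length of 408 bases. The count of the first divided by that of the second was 0.768, 1.07 and 0.931 in wild type replicates 1 to 3 and 0.614, 0.564 and 0.532 in the mutant. On chromosome 6 the rising linker gene LOC_Os06g04020 lies 1613 bases from the core histone gene LOC_Os06g04030, and their ratio was 0.124, 0.0844 and 0.0934 in wild type and 0.169, 0.210 and 0.185 in the mutant. Both ratios, which no scaling between libraries can alter, were apart between the genotypes. By contrast LOC_Os06g06510 and LOC_Os06g06460, 14966 bases apart on the same chromosome, kept a ratio of 0.967 to 1.08 in wild type and 0.970 to 1.05 in the mutant. On chromosome 3, LOC_Os03g17100 and LOC_Os03g17084 lie 1405 bases apart. Their ratio was 4.96, 6.94 and 5.62 in wild type and 4.92, 4.26 and 3.77 in the mutant, so the genotypes were barely apart. These pairs were chosen after their values were seen, and near-identical copies may share reads.

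Proteins that handle histones were counted from lists set by words in the descriptions. The list of histone chaperones and nucleosome assembly had 29 tested genes, of which 6 fell and 5 rose (median log2 change -0.08), but its wording also caught 15 nonaspanins, membrane proteins unrelated to chromatin, and 1 HIRAN domain gene. Without these and without 3 SAP30 genes of deacetylase complexes, which the wording also matched, 5 of 10 fell and 1 rose (median -0.55), against 20.3% lower and 24.9% higher over all genes tested. Both genes described as ASF1-like, a chaperone that hands over H3 and H4, fell, as did 3 of 4 nucleosome assembly protein (NAP) genes, which carry H2A and H2B. No gene described as a FACT complex subunit passed as lower. The gene with the Spt16 N-terminal lobe domain rose (log2 change 0.37). The POB3-like gene (-0.47) and 2 genes described as Spt16p/Cdc68p (median -0.16) did not pass. The NAP gene LOC_Os06g05660 measured 221, 276 and 251 CPM in wild type and 130.1, 165 and 139 CPM in lad. Its libraries were apart, and its log2 change was -0.79 ± 0.13 (adjusted p = 0.000664, edgeR). The ASF1-like gene LOC_Os05g48030 fell from 20.3 ± 2.58 to 10.8 ± 0.692 CPM. The members of this list with the smallest adjusted p among those that rose, LOC_Os08g44150 (1.97 ± 0.245 to 11.6 ± 2.31 CPM) and LOC_Os06g44140 (43.1 ± 2.56 to 74.4 ± 9.59 CPM), are nonaspanins.

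Among enzymes that modify histones, most shares of called genes were near or below those of all genes tested (24.9% higher, 20.3% lower). Of 19 deacetylase genes, a wording that also matched 2 enzymes of other substrates, 3 rose and 1 fell, 15.8 and 5.26% (median 0.01). LOC_Os07g41090, with a histone deacetylase domain, rose from 36.7 ± 3.56 to 51.5 ± 6.30 CPM, and LOC_Os04g08450, a SAP30 subunit gene of deacetylase complexes that the chaperone list also matched, fell from 25.5 ± 1.99 to 19.5 ± 1.71 CPM. Of 5 histone acetyltransferase genes 1 rose and 1 fell (median 0.19). The one that fell was LOC_Os09g17850, described as HAT1, an enzyme that acetylates newly made H4, from 33.8 ± 5.35 to 19.3 ± 1.51 CPM. The one that rose was LOC_Os06g49130, of the Rtt109/CBP type, from 4.25 ± 0.897 to 9.58 ± 1.13 CPM. Of 28 genes with a SET or pre-SET domain, found in many histone methyltransferases, 6 fell and 3 rose, 21.4 and 10.7% (median -0.15). LOC_Os03g07260 fell from 11.7 ± 1.87 to 6.09 ± 1.01 CPM, and LOC_Os02g50100 from 18.5 ± 2.44 to 12.1 ± 0.792 CPM. LOC_Os03g19480 rose from 18.3 ± 2.64 to 36.8 ± 2.49 CPM, and LOC_Os04g34610 from 18.9 ± 5.35 to 46.0 ± 5.79 CPM.

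Of 36 SNF2-type genes, whose class includes remodellers that slide nucleosomes, 10 rose and 3 fell (median 0.07). The 27.8% that rose was near the 24.9% of all genes tested, and 8.33% fell against 20.3%. LOC_Os04g53720 rose, with 5.45, 6.85 and 5.78 CPM in wild type and 25.6, 23.3 and 32.9 CPM in lad, and LOC_Os01g57110 rose from 63.4 ± 8.38 to 163 ± 33.9 CPM. LOC_Os03g51230 fell from 86.4 ± 6.05 to 62.6 ± 4.60 CPM, and LOC_Os07g25390 from 19.3 ± 1.92 to 13.3 ± 2.23 CPM. The NF-Y wording matched only subunit A, which does not itself carry the histone fold, and 6 of its 10 genes rose and 1 fell (median 0.51). LOC_Os03g29760 rose, with 61.9, 51.3 and 54.2 CPM in wild type and 149, 111 and 154 CPM in lad, and LOC_Os03g07880 from 106 ± 5.08 to 155 ± 8.03 CPM, and LOC_Os12g42400 fell from 37.0 ± 3.22 to 26.4 ± 1.47 CPM. No description matched the list of HMG proteins.

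The DNA replication machinery, which works in the same phase of the cell cycle in which most core histones are made, was counted in the same way. Of 45 tested genes 27 fell and 1 rose (median log2 change -0.46), that is 60% lower and 2.22% higher against 20.3 and 24.9% of all genes tested, beside 17 of 63 that fell and a median of -0.25 for the histone members. Wild type replicate 1 was the lowest wild type library for 22 of the 45 replication genes (48.9%), against 51 of the 63 histone members. The 2 sets are not matched in level, as 10 of the 45 averaged 50 CPM or more, against 42 of the 63. Among the members, replicate 1 was lowest for 40 of the 42 abundant genes (95.2%) and 11 of the 21 others (52.4%). LOC_Os02g55410, a gene of the MCM family that unwinds DNA, fell from 91.0 ± 5.09 to 55.4 ± 2.82 CPM. LOC_Os02g56130, described as PCNA, the sliding clamp of DNA polymerases, fell from 191 ± 13.4 to 113 ± 4.53 CPM. The gene that rose was LOC_Os03g55200, described as subunit 5 of the origin recognition complex, with 7.39 ± 1.07 and 21.6 ± 8.15 CPM. The difference between the 2 sets was not tested.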

How the data were processed

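RNA sequencing counts from 6 root tip libraries were used, 3 per genotype, grouped and numbered by the sample titles. Read counts were deposited by the authors in 1 table, with a gene length in bases, coordinates, a domain description and a family label. For the counting tool, strand setting, annotation and rice build, nothing is stated (not given in the sources used here). Bowtie 0.12.2 and mouse builds are named by the submitters' processing notes, and a mouse build cannot apply to rice loci. Coordinates are those of the deposited table. Near-identical histone copies may share or lose reads, so single genes are less certain than class sums.

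All genes were fitted together with edgeR 4.0.16 in R 4.3.3: its expression filter by group (22624 of 56962 genes kept), TMM factors (0.924 to 1.04), and the quasi-likelihood test on genotype alone, two-sided, Benjamini-Hochberg adjusted, threshold 0.05. The common biological coefficient of variation was 0.165. Standard errors are the absolute log2 change over the square root of F. Sums, ratios and medians carry no test. In simulated counts on 22326 genes for this comparison, 74 of 100 genes changed 2-fold and 99 of 100 changed 4-fold were recovered, with 9 false calls. Only genes above a floor of expected counts were changed, and far fewer than were called here. No change under 2-fold was simulated, so recovery of falls as small as those of the members was not measured. Alternatives were other scalings, filters and tests (DESeq2 1.42.0, limma-voom 3.58.1), a replicate block, and leaving out each library.

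Members and lists were chosen with earlier results of these data known. All called members are named, with the 2 most abundant of each class and up to 2 higher and 2 lower genes of each other list (smallest adjusted p, at least 5 CPM). Classes for H2A, H2B, H3 and H4 had been planned, but the descriptions do not separate them, so the deposited family label was used. Other genes named were chosen after their values were seen.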

Additional observations from a re-analysis of the deposited data

How the results depend on the processing

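The direction of no called member reversed under any of 14 alternatives, and 11 of the 22 calls held under all of them (8 lower, 3 higher). Of the others, 11 were lost when some library was left out and 5 also under another scaling or test. The number of members that fell was 17. It was 18 with the size factors of DESeq2, 23 with upper-quartile factors, 12 with library totals, 22 with DESeq2 and 17 with limma-voom. The number that rose was 5 in all of these except library totals, where it was 9. Over all genes tested the share that fell was 20.3%, and in the same order 20.8, 23.5, 16.1, 21 and 20.5%. The share that rose was 24.9%, and in the same order 24.7, 22.9, 27.5, 24.9 and 25.3%. Leaving out 1 library gave 10 to 31 members lower and 3 to 5 higher, with a median log2 change from -0.39 to -0.17, and 3360 to 5235 genes lower and 4444 to 5956 higher over the whole table. Class sum ratios moved by less than the spread between replicates. With the replicate number as a block, 21 members fell and 5 rose and 4780 and 5868 genes were called lower and higher; same-numbered libraries did not deviate together (r of 0.06, 0.13 and -0.03 for numbers 1, 2 and 3), so the numbers were not read as pairs. Depth limits the 6 members with 1 to 29 counts, which were not tested.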

Other observations

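A feature outside the rule also carries a core histone domain in its description. This region without a locus name (chromosome 4, 22461326 to 22464100) measured 385, 363 and 372 CPM in wild type and 350.3, 449 and 475 CPM in the mutant. Its genotypes overlapped (log2 change 0.19, 95% interval -0.11 to 0.48, adjusted p = 0.276, edgeR quasi-likelihood). In contrast to most abundant members, wild type replicate 1 was its highest wild type library and wild type replicate 2 its lowest.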
